A study of Homo sapiens with 24 samples.

Results

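The genes described here are the semaphorins, their plexin and neuropilin receptors, and the related plexin domain containing proteins PLXDC1 and PLXDC2, in neuroblastoma cells after knockdown of FAM167A. FAM167A, also called DIORA1, encodes a protein that the series title links to the MRCK kinases and to cell motility. Members were taken by symbol: protein-coding genes of the SK-N-SH CRISPRi table named SEMA3 to SEMA7, PLXNA to PLXND, NRP1, NRP2 or PLXDC, then matched by Ensembl identifier to the other tables. The rule gave 33 genes of the 61541 listed, 19988 of them protein-coding, and used no measured value. They were 20 semaphorins, 9 plexins, 2 neuropilins and 2 PLXDC genes, and 5 antisense RNA genes with matching symbols were left out.

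The study measured mRNA by sequencing in 24 libraries from SK-N-SH and SK-N-AS, established human neuroblastoma lines. In SK-N-SH, a pool of siRNAs against FAM167A (5 libraries) was set against non-targeting siRNA (5 libraries). CRISPR interference worked through a Cas9 fusion with the KRAB repressor domain. It compared the guide sgDIORA1 with the control guide sgGal4, in SK-N-SH (3 libraries against 3) and in SK-N-AS (4 against 4). All cells of both CRISPRi experiments, controls included, thus carried the CRISPRi system, while the siRNA cells did not by their labels. Whether the CRISPRi cells were clones or pools, how many guide sequences sgDIORA1 stands for and the time from knockdown to harvest is not known here. Each knockdown group was compared with the controls of its own experiment. The labels do not say whether replicates came from separate cultures, so p-values measure only the spread between these libraries, which may be technical.

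Semaphorins are secreted or membrane-bound guidance cues that steer growing axons and migrating cells, including the neural crest cells from which the sympathetic lineage and neuroblastoma arise. Plexins are their signalling receptors and act through an intracellular GAP domain on small GTPases. Most secreted class 3 semaphorins bind neuropilins, which lack a signalling domain of that kind and pair with class A plexins or PLXND1, and neuropilins also bind VEGF family ligands. Classes 4 to 7 are membrane-anchored and mostly bind plexins directly.

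Library depth was 71464698 to 90255175 reads in the siRNA experiment, 11690515 to 21628076 in SK-N-SH CRISPRi and 29985858 to 104455853 in SK-N-AS CRISPRi. In SK-N-AS, 87.7% to 91.0% of counts from 1 to 20 were even, and whether each read pair was counted as 2 is not stated, so read numbers there may overstate the number of fragments. FAM167A was at 34.7%, 1.33% and 10.7% of its control level in the 3 knockdown groups, in that order (edgeR adjusted p = 7.87e-14, 1.82e-37 and 2.90e-33). Levels are given as CPM, the usual scaled counts relative to library totals adjusted with TMM factors. The adrenergic markers of neuroblastoma summed to 2961.6 CPM or more in every control library, but TH averaged under 1 CPM in every group and DBH was at 12.9 CPM in the SK-N-AS controls, against 378 and 621 CPM in those of SK-N-SH. By contrast, the glial, endothelial and epithelial lists summed to at most 36.0 CPM in any library. In SK-N-AS the blood marker PTPRC stood at 542 CPM in controls and 451 CPM in knockdowns, with TYROBP and CD3E at 0. In these bulk samples fewer cells of a type and less RNA per cell cannot be told apart.

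In the siRNA experiment all 33 members were tested and 13 fell, while none rose. Over all 21018 genes tested, 6.98% were lower and 2.55% higher, 9.53% in all, by the same rule, edgeR's quasi-likelihood test with a Benjamini-Hochberg adjusted p under 0.05. At an unadjusted p under 0.05 the members numbered 16 lower and 4 higher, DESeq2 called 15 lower and 1 higher, and limma-voom called 14 lower and 0 higher. The median log2 fold change of the members was -0.11, against 0.0085 over all genes, and none of the changes reached 2-fold (0.699% of all genes did). Of all genes called, 26.7% were higher; scaling by total counts made this 55.2% and upper quartile factors 43.3%, and 9 and 10 of the 13 falls were then still called. The libraries of the 2 groups did not overlap for 11 of 33 members, against 8.74% of all genes.

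SK-N-SH cells with CRISPRi showed larger changes, mostly of the opposite sign. Of 31 members tested there, 16 rose and 6 fell, against 27.7% higher and 28% lower (55.8% in all) among 15391 genes. The members' median log2 fold change was 0.25, that of all genes -0.0068, and 9 members changed at least 2-fold (10.8% of all genes did). For 23 members the libraries of the 2 groups did not overlap, as for 60.7% of all genes. SEMA5B and SEMA6B had too few reads to be tested. Scaling by total counts in place of TMM factors shifted the median gene by -0.13 and the share of called genes that were higher from 49.7% to 30.4%; no member called either way changed direction, SEMA4C was no longer called and PLXNB1 was called lower.

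SK-N-AS cells gave another pattern. Of 31 members tested, 7 rose and 9 fell, against 15.2% and 15.5% (30.6% in all) of 19277 genes, and the median log2 fold change was 0.0076 (all genes -0.0024). A change of at least 2-fold was seen in SEMA3F and SEMA6B, both lower (2.99% of all genes reached that size), and the groups did not overlap for 15 members (29.1% of all genes). PLXDC1 and SEMA5A were close to 0 reads in this line and were not tested.

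**Figure D1:**
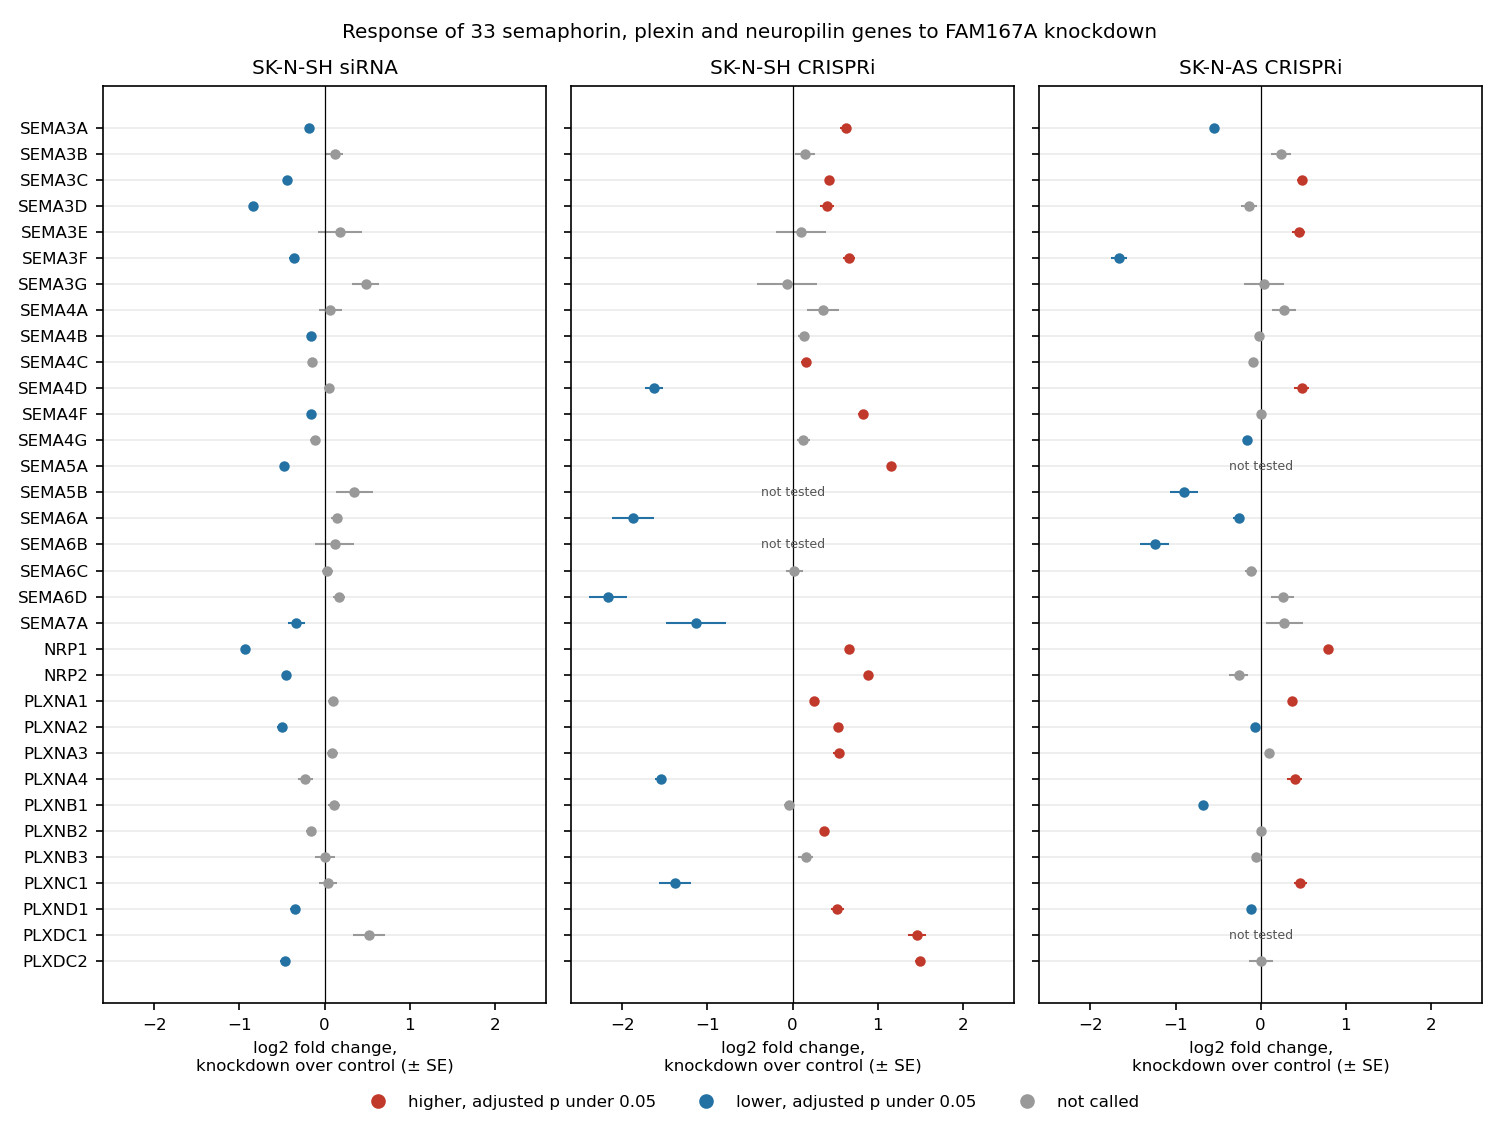
Log2 fold change of each of the 33 members, knockdown over control, with its standard error on the horizontal axis, in the 3 experiments; red and blue points have an adjusted p under 0.05. The 13 blue points of the siRNA panel stand opposite mostly red points in the SK-N-SH CRISPRi panel, and SK-N-AS has 7 red and 9 blue points.

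No member was called in the same direction in all 3 experiments, and 6 were called in all 3: NRP1, PLXNA2, PLXND1, SEMA3A, SEMA3C and SEMA3F. Within SK-N-SH, 12 members were called with both methods, 11 of them in opposite directions (NRP1, NRP2, PLXDC2, PLXNA2, PLXND1, SEMA3A, SEMA3C, SEMA3D, SEMA3F, SEMA4F and SEMA5A, all lower with siRNA and higher with CRISPRi) and 1 in the same direction (SEMA7A, lower). Among all genes called in both SK-N-SH experiments, 1098 of 1403 (78.3%) were opposite, so the members' share is near that of all genes. Between the CRISPRi experiments 11 members were called in both lines, 7 in opposite directions and 4 in the same (NRP1, SEMA3C and PLXNA1 higher, SEMA6A lower), where 809 of 3660 genes (22.1%) were opposite. The response itself, tested as an interaction, differed between the SK-N-SH methods for 21 of 33 members (31.4% of all genes) and between the lines for 20 of 33 (30.7%); SEMA5A is among these 20 although it could not be tested in SK-N-AS alone, and over the 29 members tested in both lines the number was 19. The response with CRISPRi was the higher of the SK-N-SH pair for 16 members and the lower for 5, against 15.1% and 16.4% of all genes. The response of SK-N-AS was higher than that of SK-N-SH for 6 and lower for 14, against 14.7% and 16%. Each of these contrasts sets an experiment against another that has its own controls. FAM167A was left at 34.7% of control with siRNA, 1.33% in SK-N-SH CRISPRi and 10.7% in SK-N-AS. Method or line, experiment and depth of knockdown therefore cannot be told apart in these differences.

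**Figure D2:**
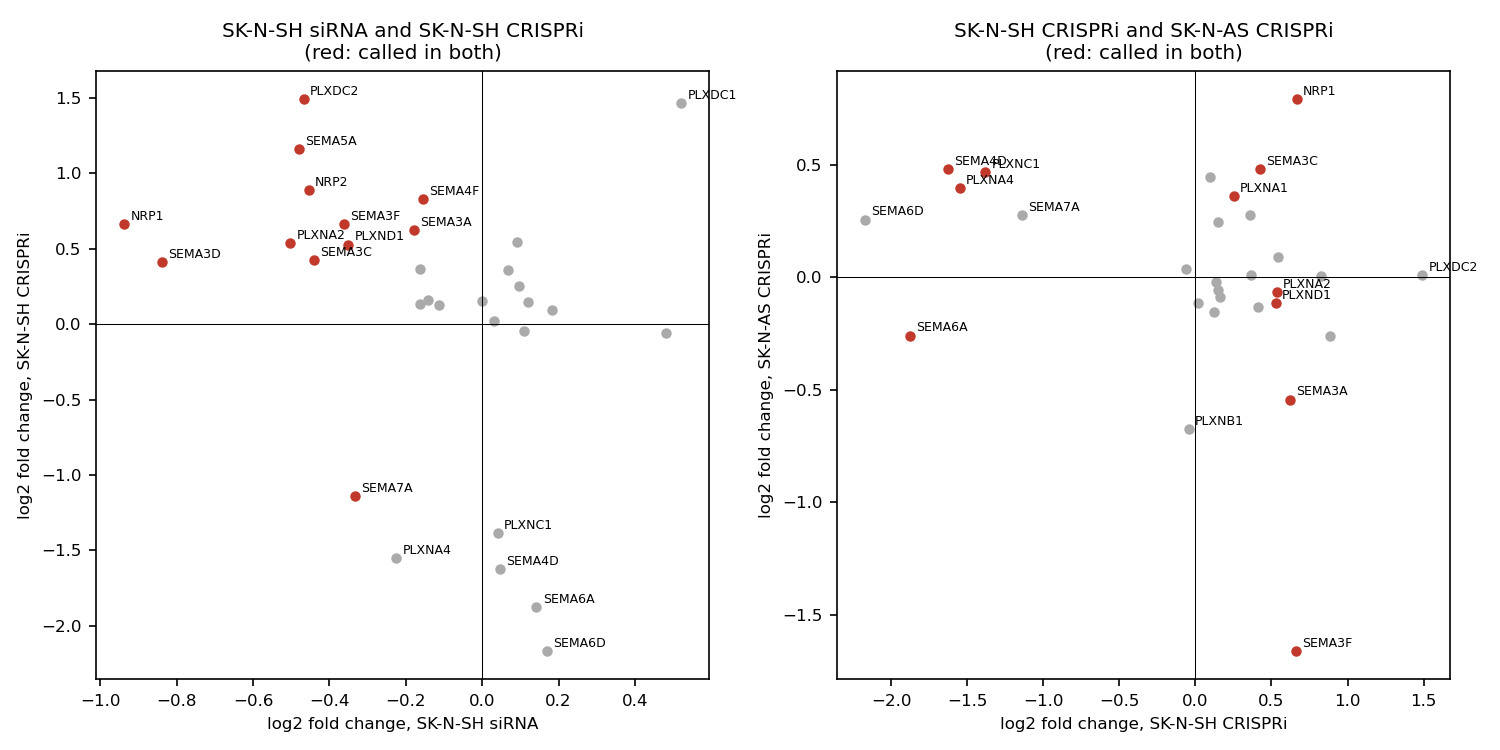
Log2 fold changes of members tested in both experiments of a pair: siRNA against CRISPRi in SK-N-SH on the left, SK-N-SH against SK-N-AS with CRISPRi on the right, with red points called in both. On the left 11 of the 12 red points lie at the upper left, and on the right 4 of the 11 red points lie on the sides where both responses share a sign.

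Among the promoters, 4 show members with contrasting responses. NRP2 and SEMA5A fell with siRNA and rose with CRISPRi in SK-N-SH, and SEMA4D and PLXNA4 fell with CRISPRi in SK-N-SH and rose in SK-N-AS. The sequences are the RefSeq windows of assembly GRCh38.p14, 250 bases before to 50 after the start, given 5′ to 3′ on the gene's strand: NRP2 at chr2:205682251-205682550, plus strand, SEMA5A at chr5:9546026-9546325, minus strand, SEMA4D at chr9:89495607-89495906, minus strand and PLXNA4 at chr7:132576421-132576720, minus strand. Capitals mark matches on either strand to any of 6 motifs that were searched: AP-1 TGANTCA, cAMP response element TGACGTCA, E-box CANNTG, TEAD GGAATG, GC box GGGCGG and homeodomain TAATTA.
NRP2: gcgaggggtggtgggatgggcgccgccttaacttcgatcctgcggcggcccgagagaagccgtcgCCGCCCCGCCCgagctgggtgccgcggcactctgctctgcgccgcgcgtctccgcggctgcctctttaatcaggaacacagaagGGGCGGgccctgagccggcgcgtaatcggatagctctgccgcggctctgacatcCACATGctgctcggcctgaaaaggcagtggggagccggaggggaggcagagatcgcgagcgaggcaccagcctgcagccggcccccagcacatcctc
SEMA5A: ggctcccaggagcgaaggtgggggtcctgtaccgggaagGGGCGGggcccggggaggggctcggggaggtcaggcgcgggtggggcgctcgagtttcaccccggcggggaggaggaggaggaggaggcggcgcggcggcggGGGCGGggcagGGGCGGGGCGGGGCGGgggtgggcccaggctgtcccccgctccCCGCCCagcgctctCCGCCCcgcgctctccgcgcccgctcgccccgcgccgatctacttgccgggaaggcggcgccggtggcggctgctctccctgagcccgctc
SEMA4D: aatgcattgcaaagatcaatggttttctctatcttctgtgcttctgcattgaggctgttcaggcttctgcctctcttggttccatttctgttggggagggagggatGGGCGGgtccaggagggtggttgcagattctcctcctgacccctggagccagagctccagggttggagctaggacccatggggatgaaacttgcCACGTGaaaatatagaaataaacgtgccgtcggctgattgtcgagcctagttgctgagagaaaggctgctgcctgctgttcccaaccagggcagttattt
PLXNA4: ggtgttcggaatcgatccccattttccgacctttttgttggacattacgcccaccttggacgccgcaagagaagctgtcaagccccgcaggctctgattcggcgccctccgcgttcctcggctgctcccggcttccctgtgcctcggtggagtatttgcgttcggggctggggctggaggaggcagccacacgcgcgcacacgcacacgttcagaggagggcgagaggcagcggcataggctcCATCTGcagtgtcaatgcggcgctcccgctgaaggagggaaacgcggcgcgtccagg

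In these windows SEMA5A has 7 GC box matches and no E-box, NRP2 has 3 GC boxes and 1 E-box, SEMA4D has 1 of each and PLXNA4 has 1 E-box and no GC box. The NRP2, SEMA4D and PLXNA4 genes as counted begin further upstream, at 205681990, 89498130 and 132648688. Their windows thus lie inside the genes, at a RefSeq start that is not the outermost. Windows were found for 28 of the 33 members, 49 windows in all, and NRP1, PLXDC1, SEMA3A, SEMA6A and SEMA6B have no entry. A GC box was present in 24 of 28 members (85.7%), and in 48.3% of the 27305 genes of the promoter table. Those genes outnumber the 19988 protein-coding genes listed, so unlike the members they are not limited to that type. Members have more windows per gene than the table as a whole, and counted by window the shares were 63.3% of 49 and 45% of 35116. The E-box letters stood in 19 of 28 members (67.9%) and 73.1% of all genes, in all 5 members with an entry that fell with CRISPRi in SK-N-SH, and in 4 of the 9 with an entry that fell with siRNA and rose with CRISPRi. The GC box stood in 4 of the same 5 and 7 of the same 9. These are counts by gene, and a gene with several windows has more room for a match. TEAD letters were in 5 members (17.9%, all genes 16.7%), AP-1 in 1 (3.57%, all genes 9.37%), the cAMP response element in 2 (7.14%, all genes 2.25%) and the homeodomain letters in 0 (all genes 5.95%). The GC content of member windows had a median of 64.3%, against 58.7% over all windows. These counts describe letters in a window and are no evidence of binding.

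Levels per length, as CPM per kilobase of exonic sequence, placed PLXNB2 first of the members in the controls of the siRNA experiment, at 72.7 ± 2.67 (SD, n = 5). SEMA3C followed at 38.1 ± 2.14 and PLXNA1 at 23.3 ± 1.48, and none of these 3 overlapped its neighbour in the order. In the SK-N-SH CRISPRi controls PLXNB2 (49.1 ± 3.84, n = 3) and SEMA3C (46.5 ± 1.93) overlapped, and PLXNA1 was next at 20.7 ± 1.34. The SK-N-AS controls had another order, with PLXNA2 first at 34.0 ± 0.99 (n = 4), then PLXNA1 at 17.0 ± 1.08 and PLXND1 at 15.1 ± 0.41. NRP2 and SEMA5A, well expressed in SK-N-SH, were at the low end in SK-N-AS. The tables were normalised separately, so levels set across experiments are a description without a test.

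**Figure D3:**
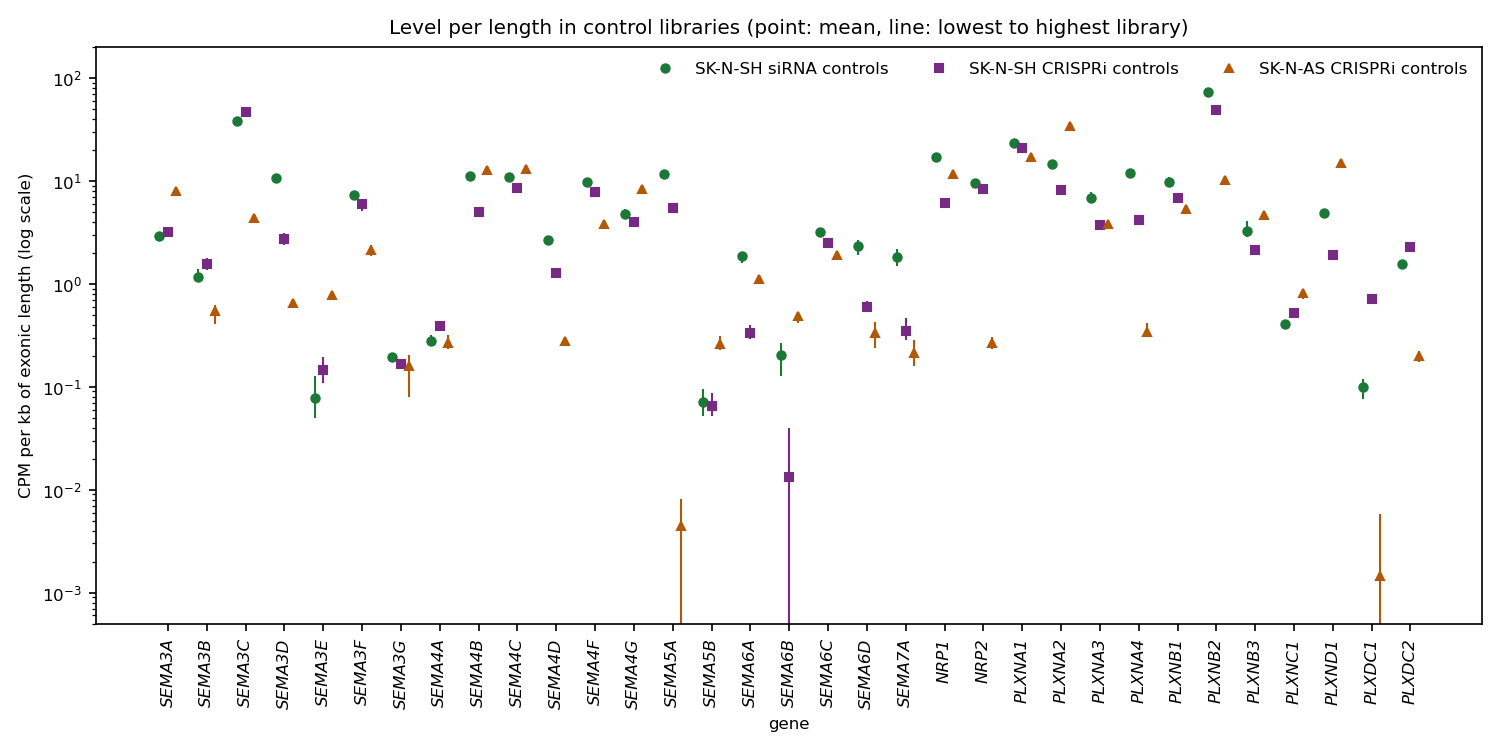
Level per kilobase of exonic length of each member in the control libraries of the 3 experiments, on a log axis; points are means and lines run from the lowest to the highest library (values under the axis limit are drawn at the limit). PLXNB2 is the top member in both SK-N-SH control groups and PLXNA2 in SK-N-AS.

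Class 3 semaphorins, the secreted ligands of neuropilin and plexin complexes, numbered 7. By edgeR's test 4 fell with siRNA and the other 3 were not called (DESeq2 called SEMA3G higher). With CRISPRi in SK-N-SH the same 4 genes rose, and in SK-N-AS 2 rose and 2 fell. Over all genes 6.98% fell with siRNA, 27.7% rose in SK-N-SH CRISPRi, and 15.2% rose and 15.5% fell in SK-N-AS. SEMA3D (ENSG00000153993, chr7:84995553-85187056 on GRCh38), a repulsive or attractive cue for neural crest and endothelial cells, had the largest drop of the class with siRNA. It stood at 86.8, 86.2, 94.2, 85.6 and 80.7 CPM in the control libraries and 45.1, 47.0, 51.6, 48.6 and 50.3 CPM in the knockdown libraries, a log2 fold change of -0.84 ± 0.047 (SE; adjusted p = 1.56e-11). Every siRNA knockdown library lay well under every control. With CRISPRi in SK-N-SH the values of SEMA3D were 25.2, 19.2 and 22.1 CPM in the control libraries and 26.7, 30.6 and 30.5 CPM in the knockdown libraries, a log2 fold change of 0.41 ± 0.083 (SE; adjusted p = 8.09e-05), and here every knockdown library lay above every control. The difference between these responses was 1.23 ± 0.10 (SE; adjusted p = 2.99e-12). SK-N-AS held SEMA3D at only 5.23 ± 0.275 CPM in controls and 4.74 ± 0.495 CPM in knockdowns (SD, n = 4 each), a log2 fold change of -0.13 ± 0.094 (SE; adjusted p = 0.325).

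SEMA3F (ENSG00000001617, chr3:50155045-50189075), a chemorepellent that signals mainly through NRP2, moved in all 3 experiments. The siRNA libraries read 35.6, 34.4, 34.5, 37.9 and 33.1 CPM in the control libraries and 23.0, 30.2, 27.5, 28.2 and 27.9 CPM in the knockdown libraries, a log2 fold change of -0.36 ± 0.06 (SE; adjusted p = 2.13e-04). In SK-N-SH CRISPRi it had 32.1, 24.9 and 29.3 CPM in the control libraries and 47.0, 44.3 and 44.6 CPM in the knockdown libraries, a log2 fold change of 0.66 ± 0.07 (SE; adjusted p = 4.85e-10). SK-N-AS had 11.1, 9, 9.20 and 11.4 CPM in the control libraries and 2.86, 3.30, 3.68 and 3.16 CPM in the knockdown libraries, a log2 fold change of -1.66 ± 0.094 (SE; adjusted p = 2.49e-16). The groups did not overlap in any experiment, with the knockdown lower, higher and lower in turn. The line difference with CRISPRi, -2.34 ± 0.12 (SE; adjusted p = 3.97e-20), was the most negative called among the members.

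SEMA3A (ENSG00000075213, chr7:83955777-84492724), the prototype growth cone collapsing ligand of NRP1, also changed in each. With siRNA it fell little, from 26.6, 26.6, 29.6, 27.7 and 26.6 CPM in controls to 24.1, 25.2, 24.4, 21.7 and 25.9 CPM, a log2 fold change of -0.18 ± 0.055 (SE; adjusted p = 0.0418). In SK-N-SH CRISPRi the values were 30.9, 28.4 and 31.0 CPM in the control libraries and 45.7, 47.9 and 45.8 CPM in the knockdown libraries, a log2 fold change of 0.62 ± 0.062 (SE; adjusted p = 5.64e-11). In SK-N-AS they were 69.2, 78.6, 78.1 and 74.4 CPM in the control libraries and 49.2, 49.2, 54.4 and 53.3 CPM in the knockdown libraries, a log2 fold change of -0.54 ± 0.041 (SE; adjusted p = 5.39e-13). Both CRISPRi comparisons were free of overlap, and they went in opposite directions (difference -1.18 ± 0.078 (SE; adjusted p = 2.25e-17)). The siRNA call of SEMA3A was lost when any 1 of knockdown libraries 1 to 4 or control libraries 1 to 4 was left out (log2 fold change -0.19 to -0.14, adjusted p = 0.0517 to 0.145).

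SEMA3C, a ligand that promotes migration of neural crest derived cells, was the most abundant semaphorin per length in SK-N-SH. It fell with siRNA from 239 ± 13.4 to 176 ± 5.96 CPM (log2 fold change -0.44, adjusted p = 1.26e-07), and rose with CRISPRi in both lines. The rise was from 291 ± 12.1 to 391 ± 17.1 CPM in SK-N-SH (0.43, adjusted p = 2.07e-11) and from 27.4 ± 1.79 to 38.4 ± 2.63 CPM in SK-N-AS (0.48, adjusted p = 1.78e-09), with a difference between lines of 0.04 ± 0.068 (SE; adjusted p = 0.746). SEMA3E, the PLXND1 ligand, rose in SK-N-AS from 6.53 ± 0.338 to 8.85 ± 0.284 CPM (log2 fold change 0.45, adjusted p = 1.10e-05) and stood at 1.38 CPM or less on average in both SK-N-SH experiments. SEMA3C, SEMA3E, SEMA3A and SEMA3D lie in this order on chromosome 7, from 80742538 to 85187056. SEMA3B was not called in any experiment. SEMA3G, at a low level, read 0.978, 0.947, 1.03, 0.998 and 0.869 CPM in the control libraries and 1.27, 1.35, 1.31, 1.66 and 1.16 CPM in the knockdown libraries with siRNA, a log2 fold change of 0.48 ± 0.16 (SE; adjusted p = 0.0666). Its knockdown libraries lay above every control, and SEMA3G was called higher with DESeq2 (0.48, adjusted p = 0.0305), upper quartile factors, total counts and a filter at 1 CPM (0.49 to 0.53, adjusted p = 0.0368 to 0.0486), but not with edgeR as run here or limma-voom.

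Class 4 members are membrane-bound ligands of B-type and other plexins. Of these, 1 of 6 changed at least 2-fold, in SK-N-SH CRISPRi, where 10.8% of all genes did. SEMA4D (ENSG00000187764, chr9:89360787-89498130), the PLXNB1 ligand known from immune cells and axons, read 18.2, 18.6 and 17.6 CPM in the control libraries and 6.02, 5.53 and 6 CPM in the knockdown libraries in SK-N-SH CRISPRi, a log2 fold change of -1.63 ± 0.11 (SE; adjusted p = 4.19e-16). All 3 knockdown libraries were at about the same level, far under the controls. SK-N-AS showed a rise at a lower level, with 3.97, 4.06, 3.92 and 3.66 CPM in the control libraries and 5.40, 5.57, 5.54 and 5.20 CPM in the knockdown libraries, a log2 fold change of 0.48 ± 0.092 (SE; adjusted p = 8.43e-05), again without overlap. With siRNA, SEMA4D was at 35.4, 39.7, 36.4, 36.6 and 39.6 CPM in the control libraries and 35.7, 39.1, 41.4, 41.4 and 36.3 CPM in the knockdown libraries, a log2 fold change of 0.046 ± 0.053 (SE; adjusted p = 0.678), and the groups overlapped. The interaction was called against both the siRNA experiment, -1.68 ± 0.11 (SE; adjusted p = 3.74e-14), and SK-N-AS, 2.10 ± 0.14 (SE; adjusted p = 6.82e-17).

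SEMA4F (ENSG00000135622, chr2:74654228-74683853), a transmembrane semaphorin of neurons and Schwann cells, had 51.1, 44.1 and 49.2 CPM in the control libraries and 81.8, 89.4 and 84.6 CPM in the knockdown libraries in SK-N-SH CRISPRi, a log2 fold change of 0.83 ± 0.055 (SE; adjusted p = 6.62e-16). The siRNA values of SEMA4F were 60.7, 63.9, 60.3, 58.0 and 58.3 CPM in the control libraries and 51.8, 53.2, 60.2, 52.3 and 53.0 CPM in the knockdown libraries, a log2 fold change of -0.16 ± 0.047 (SE; adjusted p = 0.0358), with knockdown library 3 among the controls. In SK-N-AS it was at 23.7 ± 0.796 and 23.9 ± 1.27 CPM in controls and knockdowns (SD, n = 4 each), a log2 fold change of 0.0076 ± 0.05 (SE; adjusted p = 0.936). The siRNA fall was not called without knockdown library 1, 2, 4 or 5 or without control library 1, 2 or 3 (log2 fold change of SEMA4F -0.16 to -0.14, adjusted p = 0.0633 to 0.126).

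Of the other class 4 members, SEMA4B fell with siRNA (-0.16, adjusted p = 0.0294), and this was not called without knockdown library 1, 3 or 4 or control library 1, 2 or 4 (-0.17 to -0.13, adjusted p = 0.0525 to 0.0953). SEMA4C rose in SK-N-SH CRISPRi (0.16, adjusted p = 0.0157), but not without knockdown library 1 or control library 2 or 3 (0.13 to 0.14, adjusted p = 0.0586 to 0.0915). With siRNA, leaving out knockdown library 4 brought SEMA4C to a called -0.19 (-0.14 with no filter on low counts), and in SK-N-SH CRISPRi leaving out control library 1 brought SEMA4B to a called 0.17. SEMA4G fell in SK-N-AS from 44.1 ± 2.34 to 39.5 ± 1.23 CPM (-0.16, adjusted p = 0.00421). SEMA4G shares 22.3% of its exonic bases with MRPL43 on the opposite strand, and as the strand setting of the counting is not given, its reads cannot be told from those of MRPL43 with certainty. SEMA4A was not called anywhere.

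SEMA5A (ENSG00000112902, chr5:9035033-9546075), a transmembrane semaphorin with thrombospondin repeats that can attract or repel axons, showed a contrast between methods. With siRNA it had 145, 137, 139, 144 and 147 CPM in the control libraries and 96.9, 107, 109, 102 and 95.2 CPM in the knockdown libraries, a log2 fold change of -0.48 ± 0.043 (SE; adjusted p = 3.09e-08). With CRISPRi in SK-N-SH it had 73.3, 62.4 and 64.0 CPM in the control libraries and 145, 156 and 143 CPM in the knockdown libraries, a log2 fold change of 1.16 ± 0.051 (SE; adjusted p = 1.69e-19). There was no overlap in either comparison, and the responses differed by 1.63 ± 0.075 (SE; adjusted p = 1.37e-18). In SK-N-AS only 16 reads in 4 controls and 10 reads in 4 knockdowns matched it, so a response could not be measured there. The called difference of SEMA5A between the lines, -2.06 ± 0.63 (SE; adjusted p = 0.00964), rests on those reads and was not called without SK-N-AS knockdown library 2 or control library 3 (-1.66 to -1.48, adjusted p = 0.0502 to 0.114). SEMA5B, its paralogue, fell in SK-N-AS from 2.22 ± 0.297 to 1.19 ± 0.220 CPM (-0.90, adjusted p = 3.72e-05).

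Class 6 semaphorins, transmembrane ligands and receptors of A-type plexins, were lower where they were called. SEMA6D (ENSG00000137872, chr15:47184101-47774228), which binds PLXNA1, had 5.87, 4.62 and 4.81 CPM in the control libraries and 1.11, 0.742 and 1.47 CPM in the knockdown libraries in SK-N-SH CRISPRi, a log2 fold change of -2.17 ± 0.22 (SE; adjusted p = 1.23e-10). This was the largest fall of any member in that experiment, with a wide gap between the groups. In the siRNA experiment SEMA6D was at 19.8, 20.4, 22.6, 16.3 and 20.2 CPM in the control libraries and 22.1, 23.4, 22.6, 22.7 and 21.0 CPM in the knockdown libraries, a log2 fold change of 0.17 ± 0.067 (SE; adjusted p = 0.133), and in SK-N-AS at 3.63, 3, 2.76 and 2.05 CPM in the control libraries and 3.38, 3.42, 3.21 and 3.68 CPM in the knockdown libraries, a log2 fold change of 0.26 ± 0.13 (SE; adjusted p = 0.142). The groups overlapped in both, although leaving out siRNA control library 3 (0.22) or SK-N-AS control library 1 (0.42) brought a call. SEMA6A fell in SK-N-SH CRISPRi from 3.67 ± 0.614 to 0.980 ± 0.170 CPM (-1.88, adjusted p = 2.26e-08) and in SK-N-AS from 12.2 ± 0.916 to 10.1 ± 0.326 CPM (-0.26, adjusted p = 0.00258). SEMA6B fell in SK-N-AS from 2.13 ± 0.225 to 0.887 ± 0.129 CPM (-1.25, adjusted p = 3.18e-07). SEMA6C was called in none of the 3.

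SEMA7A, the GPI-anchored semaphorin that binds PLXNC1 and integrins, was the single member lower with both methods in SK-N-SH. Its level was 6.86 ± 0.954 and 5.45 ± 0.455 CPM with siRNA (-0.33, adjusted p = 0.0297) and 1.32 ± 0.400 and 0.592 ± 0.209 CPM with CRISPRi (-1.14, adjusted p = 0.00609), in controls and knockdowns. The siRNA call was lost without knockdown library 1, 2, 4 or 5 or control library 1 or 4 (-0.33 to -0.26, adjusted p = 0.0515 to 0.129). The CRISPRi call of SEMA7A was lost without knockdown library 1 or control library 2 (-0.91 to -0.88, adjusted p = 0.0546 to 0.0608).

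The neuropilins were called in 5 of 6 comparisons. Of all genes, 9.53% were called with siRNA, 55.8% in SK-N-SH CRISPRi and 30.6% in SK-N-AS. NRP1 (ENSG00000099250, chr10:33177492-33336262), the co-receptor of SEMA3A and VEGFA, had 197, 192, 208, 204 and 184 CPM in the control libraries and 97.2, 103, 111, 106 and 96.7 CPM in the knockdown libraries with siRNA, a log2 fold change of -0.94 ± 0.045 (SE; adjusted p = 9.87e-13). In SK-N-SH CRISPRi it had 71.5, 68.7 and 72.5 CPM in the control libraries and 111, 117 and 109.7 CPM in the knockdown libraries, a log2 fold change of 0.66 ± 0.047 (SE; adjusted p = 3.48e-15). In SK-N-AS it had 138, 126, 136 and 134 CPM in the control libraries and 233, 231, 226 and 236 CPM in the knockdown libraries, a log2 fold change of 0.79 ± 0.029 (SE; adjusted p = 1.07e-21). The groups were apart in all 3, with the siRNA knockdown at 0.522 times its control and the CRISPRi knockdowns at 1.59 and 1.73 times theirs. The difference between the SK-N-SH methods was 1.59 ± 0.073 (SE; adjusted p = 1.35e-18), while that between the lines, 0.12 ± 0.056 (SE; adjusted p = 0.119), was not called; it was called at 0.14 without SK-N-AS control library 1.

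NRP2 (ENSG00000118257, chr2:205681990-205798133), the co-receptor of SEMA3F and VEGFC, had 131, 123, 135, 146 and 122 CPM in the control libraries and 91.0, 103, 99.6, 96.5 and 89.5 CPM in the knockdown libraries with siRNA, a log2 fold change of -0.45 ± 0.05 (SE; adjusted p = 7.58e-07). In SK-N-SH CRISPRi it had 126, 112 and 111 CPM in the control libraries and 218, 217 and 208 CPM in the knockdown libraries, a log2 fold change of 0.89 ± 0.045 (SE; adjusted p = 5.83e-19). Again the groups did not overlap, with the knockdown below control for siRNA and above it for CRISPRi. SK-N-AS expressed little NRP2, at 4.20, 3.20, 3.55 and 3.90 CPM in the control libraries and 3.30, 3.17, 2.92 and 3.12 CPM in the knockdown libraries, a log2 fold change of -0.26 ± 0.11 (SE; adjusted p = 0.0721), which was called at -0.31 only without control library 2. The responses differed by 1.33 ± 0.078 (SE; adjusted p = 1.18e-15) between methods and by -1.17 ± 0.09 (SE; adjusted p = 5.87e-15) between lines.

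**Figure D4:**
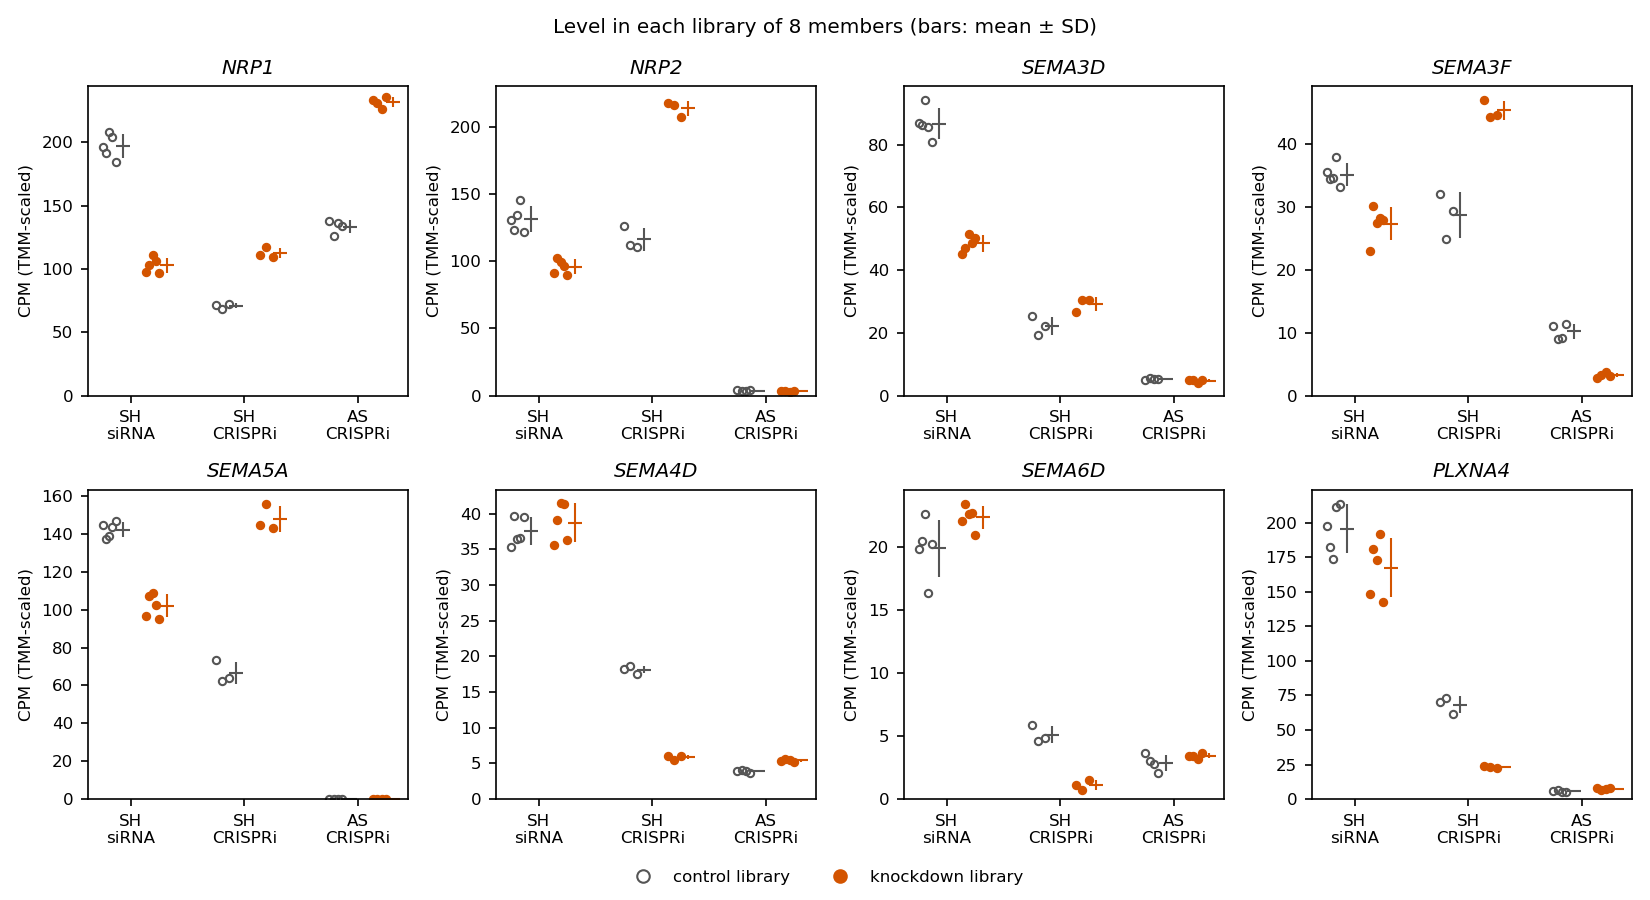
CPM of 8 members in each library (open circles, controls; filled circles, knockdowns; bars, mean ± SD), with the 3 experiments side by side. NRP1, NRP2, SEMA3D, SEMA3F and SEMA5A lie below control with siRNA and above it with CRISPRi in SK-N-SH, and SEMA4D, SEMA6D and PLXNA4 drop with CRISPRi in SK-N-SH.

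A-type plexins, the signalling partners of neuropilins and the receptors of class 6 semaphorins, split within SK-N-SH CRISPRi: PLXNA1, PLXNA2 and PLXNA3 rose and PLXNA4 fell. PLXNA4 (ENSG00000221866, chr7:132123340-132648688), prominent in sympathetic and sensory neurons, had 70.4, 73.1 and 61.6 CPM in the control libraries and 23.8, 23.4 and 22.5 CPM in the knockdown libraries, a log2 fold change of -1.55 ± 0.067 (SE; adjusted p = 4.05e-21). The knockdown libraries lay close together and far below every control. With siRNA the values were 197, 183, 174, 212 and 214 CPM in the control libraries and 148, 181, 173, 192 and 143 CPM in the knockdown libraries, a log2 fold change of -0.22 ± 0.087 (SE; adjusted p = 0.152), and the groups overlapped. That siRNA value of PLXNA4 was called lower with DESeq2 (-0.22, adjusted p = 0.0349) and with no filter on low counts (-0.23, adjusted p = 1.52e-04). In SK-N-AS they were 5.82, 6.80, 4.94 and 4.97 CPM in the control libraries and 7.79, 6.51, 7.22 and 7.70 CPM in the knockdown libraries, a log2 fold change of 0.40 ± 0.093 (SE; adjusted p = 9.87e-04), also with overlap. The line difference was 1.94 ± 0.12 (SE; adjusted p = 1.36e-18).

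PLXNA2 (ENSG00000076356, chr1:208022242-208244384), a receptor for class 3 and class 6 semaphorins, fell with siRNA, with 197, 196, 179, 217 and 209 CPM in the control libraries and 127, 147, 147, 157 and 127 CPM in the knockdown libraries, a log2 fold change of -0.50 ± 0.062 (SE; adjusted p = 1.84e-05). It rose in SK-N-SH CRISPRi, with 119, 104 and 113 CPM in the control libraries and 164, 172 and 151 CPM in the knockdown libraries, a log2 fold change of 0.53 ± 0.05 (SE; adjusted p = 1.66e-10). Neither comparison showed overlap. In SK-N-AS, where it was the most abundant member per length, PLXNA2 had 486, 453, 467 and 469.6 CPM in the control libraries and 448, 462, 444 and 439 CPM in the knockdown libraries, a log2 fold change of -0.066 ± 0.025 (SE; adjusted p = 0.0466). That small fall was not called without knockdown library 1, 3 or 4 or control library 1, 3 or 4 (-0.068 to -0.045, adjusted p = 0.0707 to 0.197).

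PLXNA1 rose with CRISPRi in both lines, from 226 ± 14.7 to 269 ± 7.56 CPM in SK-N-SH (0.25, adjusted p = 4.54e-06) and from 186 ± 11.9 to 239.8 ± 6.69 CPM in SK-N-AS (0.36, adjusted p = 1.28e-10). Its difference between lines, 0.10 ± 0.057 (SE; adjusted p = 0.222), was called only without SK-N-AS control library 1 (0.14). PLXNA3 rose in SK-N-SH CRISPRi from 43.8 ± 3.91 to 63.5 ± 5.47 CPM (0.54, adjusted p = 2.41e-08). In SK-N-AS the log2 fold change of PLXNA3 was 0.092 (adjusted p = 0.067), and it was called higher with DESeq2, limma-voom, upper quartile factors, the 1 CPM filter and halved counts (0.096 to 0.10, adjusted p = 0.0335 to 0.0451), and without control library 1 or 2 (0.11).

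Among the B-type plexins, receptors of class 4 semaphorins that act on RhoA, PLXNB1 (ENSG00000164050, chr3:48403854-48430086) fell in SK-N-AS. It had 53.9, 52.3, 50.6 and 49.8 CPM in the control libraries and 33.3, 32.6, 31.6 and 31.9 CPM in the knockdown libraries, a log2 fold change of -0.67 ± 0.04 (SE; adjusted p = 9.78e-16), with a clear gap between the groups. The values of PLXNB1 with siRNA were 95.1, 97.1, 87.4, 90.4 and 107 CPM in the control libraries and 89.5, 101, 111, 116 and 97.2 CPM in the knockdown libraries, a log2 fold change of 0.11 ± 0.069 (SE; adjusted p = 0.392), and in SK-N-SH CRISPRi 71.4, 63.2 and 62.7 CPM in the control libraries and 63.4, 63.8 and 63.0 CPM in the knockdown libraries, a log2 fold change of -0.045 ± 0.053 (SE; adjusted p = 0.495). In both of these the groups overlapped, and the line difference was -0.64 ± 0.067 (SE; adjusted p = 4.88e-11). PLXNB2 rose in SK-N-SH CRISPRi from 356 ± 27.9 to 459 ± 7.25 CPM (0.36, adjusted p = 1.41e-08), and with siRNA its change of -0.16 (adjusted p = 0.0615) was called with DESeq2, limma-voom and no filter on low counts (-0.17 to -0.16, adjusted p = 0.00842 to 0.0498), and at -0.20 without knockdown library 3. PLXNB3 was not called in any experiment, and 20.4% of its exonic bases are shared with SRPK3 on the same strand.

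PLXNC1, the SEMA7A receptor, fell in SK-N-SH CRISPRi from 5.19 ± 0.550 to 1.99 ± 0.251 CPM (-1.38, adjusted p = 4.70e-08) and rose in SK-N-AS from 8.02 ± 0.875 to 11.1 ± 0.460 CPM (0.47, adjusted p = 5.88e-06). The difference was 1.84 ± 0.20 (SE; adjusted p = 1.22e-10). PLXND1, the SEMA3E receptor, fell with siRNA from 47.6 ± 2.04 to 37.4 ± 2.72 CPM (-0.35, adjusted p = 4.33e-05). It rose in SK-N-SH CRISPRi from 18.6 ± 1.61 to 26.6 ± 1.71 CPM (0.53, adjusted p = 6.22e-07) and fell slightly in SK-N-AS, from 147 ± 4.02 to 136 ± 2.68 CPM (-0.11, adjusted p = 0.00222).

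The PLXDC genes encode transmembrane proteins with a plexin-like extracellular domain, first described in tumour endothelium, and are not semaphorin receptors by name. PLXDC2 (ENSG00000120594, chr10:19816239-20289856) had 27.1, 28.3 and 29.6 CPM in the control libraries and 77.6, 84.1 and 78.9 CPM in the knockdown libraries in SK-N-SH CRISPRi, a log2 fold change of 1.49 ± 0.057 (SE; adjusted p = 4.81e-23), the largest rise of any member. With siRNA it had 18.6, 19.9, 19.5, 18.9 and 20.5 CPM in the control libraries and 14.4, 13.6, 12.7, 14.6 and 15.1 CPM in the knockdown libraries, a log2 fold change of -0.47 ± 0.059 (SE; adjusted p = 5.44e-06). Neither comparison showed overlap, and the direction was reversed between them (difference 1.95 ± 0.089 (SE; adjusted p = 1.20e-18)). In SK-N-AS the level was 2.48 ± 0.255 CPM in controls and 2.53 ± 0.484 CPM in knockdowns (SD, n = 4 each), a log2 fold change of 0.0091 ± 0.14 (SE; adjusted p = 0.973). PLXDC1 (ENSG00000161381, chr17:39063313-39154394) had 6.61, 5.94 and 7.19 CPM in the control libraries and 18.0, 16.9 and 20.1 CPM in the knockdown libraries in SK-N-SH CRISPRi, a log2 fold change of 1.46 ± 0.11 (SE; adjusted p = 1.43e-14), without overlap. Its siRNA values of 0.937, 0.974, 0.864, 0.707 and 1.11 CPM in the control libraries and 1.22, 1.62, 0.861, 1.29 and 1.59 CPM in the knockdown libraries overlapped, with a log2 fold change of 0.52 ± 0.19 (SE; adjusted p = 0.0997), called at 0.64 without knockdown library 3. In SK-N-AS 4 reads of PLXDC1 were counted over the 4 controls and 8 over the 4 knockdowns.

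Of 5 lists of genes that act with semaphorins, the first held 17 co-receptors and other partners, such as integrins, L1-family adhesion molecules, MET and proteoglycans. The shares over all genes to set beside the counts of each list were 2.55% higher and 6.98% lower with siRNA. They were 27.7% higher and 28% lower in SK-N-SH CRISPRi, and 15.2% higher and 15.5% lower in SK-N-AS. With siRNA 5 of 17 fell, the smallest adjusted p belonging to CD44, a hyaluronan receptor, at 231 ± 16.9 CPM in controls and 71.0 ± 4.49 CPM in knockdowns (SD; log2 fold change -1.70 ± 0.052 SE, adjusted p = 1.04e-15), with MET (-0.34) and GPC1 (-0.39) next. In SK-N-SH CRISPRi 6 of 15 rose and 9 fell. The adhesion molecules L1CAM, at 102 ± 3.48 CPM in controls and 28.1 ± 0.348 CPM in knockdowns (SD; log2 fold change -1.86 ± 0.054 SE, adjusted p = 9.56e-27), and CNTN1 (-2.63) fell, and ITGB1, the common integrin subunit, rose (0.82). In SK-N-AS 9 of 15 rose and 4 fell, led by ROBO1 (0.56), NCAM1 (0.64) and ITGA1 (0.71). CD44, which fell with siRNA, was among the rises with CRISPRi in SK-N-SH (0.41) and in SK-N-AS (0.38).

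The next list held 9 genes, the VEGF family ligands and receptors, several of which bind neuropilins, and the MET ligand HGF. VEGFC, the NRP2 ligand, moved like NRP2 in SK-N-SH. It was at 74.1 ± 8.11 CPM in controls and 51.3 ± 4.57 CPM in knockdowns (SD; log2 fold change -0.53 ± 0.074 SE, adjusted p = 1.59e-04) with siRNA and at 103 ± 4.98 CPM in controls and 200.1 ± 3.51 CPM in knockdowns (SD; log2 fold change 0.96 ± 0.043 SE, adjusted p = 5.67e-21) with CRISPRi. With siRNA 3 of 7 fell and 1 rose, in SK-N-SH CRISPRi 2 of 6 rose and 2 fell, and in SK-N-AS 2 of 8 rose and 2 fell. HGF was among the falls with siRNA (-0.41) and in SK-N-SH CRISPRi (-0.53). Not all of the list moved like VEGFC. VEGFA, a ligand of NRP1, fell in SK-N-SH CRISPRi (-0.39) and was not called with siRNA. PGF rose with siRNA (0.23) and in SK-N-SH CRISPRi (0.68). VEGFB fell with siRNA (-0.22) and was not called in SK-N-SH CRISPRi. Opposite directions, as for VEGFC, were found in 78.3% of all genes called in both SK-N-SH experiments. The receptor FLT1 rose (1.06) and the ligand PGF fell (-0.72) in SK-N-AS.

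The list of 34 cytoplasmic mediators of plexin signalling had 7 lower and 1 higher of 33 tested with siRNA, 19 higher and 4 lower of 31 in SK-N-SH CRISPRi, and 8 higher and 10 lower of 33 in SK-N-AS. Its median log2 fold change was -0.054, 0.19 and -0.0059, against 0.0085, -0.0068 and -0.0024 over all genes. MICAL2, an actin-oxidising enzyme of the MICAL family, fell with siRNA (129 ± 9.46 CPM in controls and 92.7 ± 9.32 CPM in knockdowns (SD; log2 fold change -0.48 ± 0.064 SE, adjusted p = 7.54e-05)). It rose in SK-N-SH CRISPRi (70.5 ± 3.33 CPM in controls and 133 ± 4.80 CPM in knockdowns (SD; log2 fold change 0.92 ± 0.047 SE, adjusted p = 2.61e-19)) and in SK-N-AS (68.0 ± 2.48 CPM in controls and 139 ± 0.817 CPM in knockdowns (SD; log2 fold change 1.03 ± 0.031 SE, adjusted p = 7.93e-24)). The Rac exchange factor TIAM1 fell in SK-N-SH CRISPRi (-1.76).

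The 5 CRMP phosphoproteins, which relay SEMA3A signals to microtubules, were not called with siRNA in either direction (0 of 5 by edgeR, 0 at an unadjusted p under 0.05, and 0 by DESeq2 and by limma-voom). In SK-N-SH CRISPRi 4 of 5 fell, CRMP1 at 161 ± 2.84 CPM in controls and 42.3 ± 2.59 CPM in knockdowns (SD; log2 fold change -1.93 ± 0.049 SE, adjusted p = 1.68e-28) and DPYSL5 by a log2 fold change of -2.26, while DPYSL3 rose (1.02). SK-N-AS had 2 of 5 lower, DPYSL3 (-0.72) and DPYSL5 (-1.82). The list of 8 proteases that cleave semaphorins or neuropilins had 3 of 7 lower with siRNA, 4 of 7 higher and 1 lower in SK-N-SH CRISPRi, and 3 of 8 higher and 3 lower in SK-N-AS. The membrane protease MMP14 fell with siRNA (-0.76), rose in SK-N-SH CRISPRi (1.03) and fell in SK-N-AS (-0.15). The proprotein convertase FURIN fell with siRNA (-0.24) and rose with CRISPRi in SK-N-SH (0.52) and SK-N-AS (0.32).

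Markers of neuroblastoma cell states moved beside these genes. In SK-N-SH CRISPRi all 11 tested adrenergic markers were lower (median log2 fold change -1.64, summed level 2961.6 to 3138 CPM in controls and 998 to 1063 CPM in knockdowns). There 9 of 12 mesenchymal markers were higher and 2 lower (summed 11511 to 13165 and 24633 to 25796 CPM), and 6 of 6 fibroblast and smooth muscle markers were higher (1037 to 1138 and 1849 to 1918 CPM). In SK-N-AS 8 of 12 adrenergic markers were lower, 8 of 12 mesenchymal markers higher and 3 lower, and 5 of 6 fibroblast and smooth muscle markers higher and 1 lower. With siRNA 3 of 11 adrenergic markers were higher, 5 of 12 mesenchymal markers lower, and 3 of 7 fibroblast and smooth muscle markers higher and 1 lower. The siRNA sums overlapped between controls and knockdowns for the adrenergic (4332 to 4793 and 4597 to 5070 CPM) and mesenchymal lists (6944 to 7292 and 6285 to 8132 CPM). Those of the fibroblast and smooth muscle list also overlapped. Over all genes 2.55% were higher and 6.98% lower with siRNA. In SK-N-SH CRISPRi these shares were 27.7% and 28%, and in SK-N-AS 15.2% and 15.5%. The fibroblast genes DCN and LUM stood at 2.82 and 19.9 CPM in the siRNA controls, 109 and 343 CPM in the SK-N-SH CRISPRi controls and 261 and 583 CPM in the SK-N-AS controls. Of the muscle genes, ACTA2 averaged 17.7, 458 and 9.10 CPM in the same controls, while DES and MYH11 stayed under 1 CPM on average in every group. The part of these marker changes in the members' changes was not tested.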

How the data were processed

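RNA sequencing counts from 24 libraries in 6 groups were used, as raw reads per gene deposited by the authors in 1 table for each experiment. Per the submitters' processing notes, bcl2fastq 2.20.0.422 and 2.20, CASAVA, FastQC 0.11.8, STAR 2.6.1d and featureCounts 1.5.1 were used on GRCh38; the annotation release and strand setting of the counting are not stated there. Per the labels' protocols, the CRISPRi libraries came from a stranded mRNA kit, and the siRNA protocol covers stranded and unstranded libraries. Replicates were not duplicates: within groups the chi-square of counts per degree of freedom was 1.72 or more.

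Each experiment was fitted alone in R 4.3.3 with edgeR 4.0.16: filterByExpr (minimum count 10, minimum total 15), TMM factors, robust quasi-likelihood fit, two-sided test and Benjamini-Hochberg adjustment over all genes tested, with calls at an adjusted p under 0.05. Differences in response were interaction terms over 2 experiments, which share no libraries; the 2 interactions share the SK-N-SH CRISPRi libraries. The fits were also run on simulated counts in which few genes changed, as a check of the code. No result given here rests on that run. Alternatives were DESeq2 1.42.0, limma 3.58.1 (voom), other scalings and filters, a replicate block and leaving out each library. Exonic lengths came from the siRNA table and equal GENCODE 29 for 33 of 33 members. Promoters were matched by symbol. Protein sequences were not analysed here.

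Members, gene lists and tests were chosen with earlier results of these data known. Values in every library are given for members called with a change of 0.5 or more in log2 size (21 members), limited to the 14 with the smallest adjusted p. For lists, the named genes were mostly among the 3 called genes with the smallest adjusted p in an experiment. Some were also given for an experiment where they ranked lower or were not called, and some genes of higher rank are not named.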

Additional observations from a re-analysis of the deposited data

Results flagged for a closer look

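The response to knockdown differed between siRNA and CRISPRi in SK-N-SH for 21 members, by the interaction term of edgeR's quasi-likelihood test (adjusted p under 0.05). The value after each gene is the log2 fold change with CRISPRi minus that with siRNA. Method, experiment and depth of knockdown cannot be told apart in these values. It was positive for 16: PLXDC2 (1.95), SEMA5A (1.63), NRP1 (1.59), NRP2 (1.33), SEMA3D (1.23), PLXNA2 (1.03), SEMA3F (1.01), SEMA4F (0.97), PLXDC1 (0.94), PLXND1 (0.86), SEMA3C (0.86), SEMA3A (0.79), PLXNB2 (0.52), PLXNA3 (0.44), SEMA4C (0.29) and SEMA4B (0.28). It was negative for 5: SEMA6D (-2.35), SEMA6A (-2.03), SEMA4D (-1.68), PLXNC1 (-1.44) and PLXNA4 (-1.34). All 11 genes that fell with siRNA and rose with CRISPRi were among the positive ones. The gene SEMA7A joined those called without siRNA control library 4 or CRISPRi knockdown library 2 (-1.09 to -0.88, adjusted p = 0.0430 to 0.0434).

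With CRISPRi the response differed between the lines for 20 members by the same test, given as SK-N-AS minus SK-N-SH. Line, experiment and depth of knockdown cannot be told apart here either. It was positive for 6: SEMA6D (2.42), SEMA4D (2.10), PLXNA4 (1.94), PLXNC1 (1.84), SEMA6A (1.61) and SEMA7A (1.41). It was negative for 14: SEMA3F (-2.34), SEMA5A (-2.06), PLXDC2 (-1.51), SEMA3A (-1.18), NRP2 (-1.17), SEMA4F (-0.83), PLXND1 (-0.66), PLXNB1 (-0.64), PLXNA2 (-0.61), SEMA3D (-0.55), PLXNA3 (-0.46), PLXNB2 (-0.37), SEMA4G (-0.29) and SEMA4C (-0.26). SEMA5A had too few reads in SK-N-AS to be tested there, so its value is no measured difference; without it 19 remain, 13 of them negative. The call of SEMA7A also rests on few reads and was lost without SK-N-SH knockdown library 1 or control library 2 (1.15 to 1.18, adjusted p = 0.0614 to 0.0729). The call of SEMA5A was lost without SK-N-AS knockdown library 2 or control library 3 (-1.66 to -1.48, adjusted p = 0.0502 to 0.114). PLXNB3 was called at -0.29 without SK-N-SH control library 1.

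Single libraries stood apart from the rest of their group, by Dixon's test of the gap to the nearest value, in 8 of 132 groups of 4 or 5 libraries; chance gives about 1 in 20. With siRNA, knockdown library 3 was high for SEMA4F (60.2 CPM, the others 51.8 to 53.2) and SEMA7A (6.24 CPM, the others 5.16 to 5.42). Control library 3 was low for PLXNB2 (494.9 CPM, the others 529 to 543), and control library 5 was high for SEMA4C (70.8 CPM, the others 64.8 to 66.5) and SEMA4G (28.2 CPM, the others 23.6 to 24.6). In SK-N-AS, knockdown library 3 was low for PLXNA1 (229.8 CPM, the others 242 to 244) and SEMA3D (4.01 CPM, the others 4.88 to 5.05), and control library 1 held the control reads of PLXDC1 (0.0542 CPM, the others 0).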

How the results depend on the processing

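No called member changed sign in any alternative, and 9 of 13 calls with siRNA, 20 of 22 in SK-N-SH CRISPRi and 15 of 16 in SK-N-AS held in every alternative run; the others were SEMA3A, SEMA4B, SEMA4F and SEMA7A, then SEMA4C and SEMA7A, then PLXNA2. With siRNA the count of members higher was 1 in place of 0 with DESeq2, upper quartile factors, total counts and the 1 CPM filter (SEMA3G each time), and 0 to 1 when a library was left out (PLXDC1 without knockdown library 3, SEMA6D without control library 3). Leaving out 1 library gave 9 to 13 members lower with siRNA, 15 to 17 higher and 5 to 6 lower in SK-N-SH CRISPRi, 7 to 9 higher and 8 to 10 lower in SK-N-AS, and 21 to 22 and 19 to 22 differences in response. All genes called then numbered 1406 to 2515, 7776 to 8449 and 5149 to 5900.

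Replicate numbers did not pair the libraries (same-number correlations of -0.14 to 0.048), so the replicate block is given only here: it left 9 of the 13 falls with siRNA, 1532 genes in place of 2004, and changed no call of a member in the CRISPRi experiments or the differences. Leaving out siRNA knockdown library 4 and control library 5 together, added after seeing the data, gave 11 members lower. Halving the SK-N-AS counts, also added because 87.7% to 91.0% of its counts from 1 to 20 were even (siRNA 59.0% to 62.6%, SK-N-SH CRISPRi 38.7% to 39.9%), gave 8 higher and 8 lower.

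Sign changes were seen only in values that were not called, and their cause was not tested. SEMA6B with siRNA ranged from -0.082 (without knockdown library 2) to 0.23 when a library was left out, and was -0.0088 without control library 1. PLXNC1 with siRNA ranged from -0.046 (without knockdown library 4) to 0.081, and was -0.019 without that and control library 5. PLXNB1 in SK-N-SH CRISPRi ranged from -0.083 to 0.010, the latter without control library 1. In SK-N-AS, PLXDC2 was -0.032 with limma-voom, -0.0033 with halved counts and -0.072 to 0.14 without single libraries, and SEMA4F was -0.032 to 0.036 without single libraries. Few reads limited SEMA5A and PLXDC1 in SK-N-AS, at 0.054 and 0.014 CPM on average in controls, and SEMA5B and SEMA6B in SK-N-SH CRISPRi. A change of these genes could not be tested there.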
